A study of Rattus norvegicus with 6 samples.

Results

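Collagens are triple-helical proteins of the extracellular matrix, and this account follows their genes through rat skin with and without a drug rash. The set comprised 43 of the 34225 loci of the count table, namely every row whose gene symbol consists of Col, a number, the letter a and a further number. All 43 carried the collagen triple helix repeat in the domain annotation of the deposited table. They were grouped by structure as 11 fibrillar genes, 8 basement membrane genes, 9 fibril-associated genes with interrupted helices (FACIT), 4 transmembrane genes and 11 others. A filter on low counts kept 37 of the 43, against 16398 of all loci. Col2a1, Col9a1, Col10a1, Col19a1, Col25a1 and Col6a4 were filtered out, with 3 to 23 counts each summed over all libraries. Col6a3 and Col21a1 were not among the matched rows and were not analysed here.

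The tissue was back skin of Sprague-Dawley rats, an outbred albino laboratory stock, and each of 3 groups had 2 libraries. The untreated group had received no drug and served as the control. In the gefitinib group, rats had received gefitinib by mouth at 80 mg/kg once a day until a rash appeared. In the afatinib group, the dose was 30 mg/kg of afatinib, also by mouth, once a day until rash. Gefitinib and afatinib both block the epidermal growth factor receptor (EGFR), a kinase that drives growth of epidermal and hair follicle cells, and rash is their common side effect in skin. Doses differed between the drugs, no time to rash is stated in the labels, and the same untreated libraries served both drug comparisons. The labels do not say whether the libraries came from separate rats, so p-values measure the spread between these samples, which may be technical.

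In skin, fibroblasts of the dermis secrete most of the fibrillar collagen, whose chains are hydroxylated in the endoplasmic reticulum, trimmed outside the cell and cross-linked into fibrils that give the tissue its strength. Type IV collagen instead forms the sheet-like network of basement membranes under the epidermis and around vessels, muscle fibres and Schwann cells. FACIT collagens sit on the surface of fibrils, and the transmembrane collagens anchor cells to the matrix.

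The libraries held 17206456 to 22086673 counts. Levels between libraries are given as CPM, the count scaled to library size with TMM factors, and log2 fold changes come from the quasi-likelihood test of edgeR. Libraries were unlike in make-up, as 49 skeletal muscle genes showed, of which 9 were cell type markers and the rest further muscle genes. The 49 genes took 26.9% and 25.6% of counts in untreated skin, 7.17% and 11.8% with gefitinib, and 21.1% and 7.73% with afatinib. TMM factors ran from 0.717 to 1.39. Afatinib replicate 1 had r = 0.955 and 0.956 across genes with the untreated libraries (log scale; genes are not independent replicates), against 0.877 to 0.886 for the gefitinib libraries. With scaling by library size only, the median of all genes moved to log2 0.73 for gefitinib and 0.71 for afatinib. It was 0.04 and 0.09 under TMM, and fold changes are best read relative to those medians. As these are whole pieces of skin, fewer cells of a type and less RNA per cell cannot be told apart.

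Untreated skin was dominated by the dermal fibril genes. On the deposited FPKM scale, which divides counts by gene length and so allows genes to be compared, Col3a1 stood at 1672 ± 896 (SD, n = 2). Col1a1 followed at 1001 ± 519 FPKM and Col1a2 at 161 ± 71.1 FPKM. These encode type III collagen, which forms thin fibrils, and the 2 chains of type I collagen, the main protein of dermis. The libraries of Col3a1 (1039 and 2305 FPKM) and Col1a1 (634 and 1368 FPKM) overlapped, so these neighbours did not differ beyond their spread, whereas both lay above Col1a2 (110.5 and 211 FPKM). The type VI genes Col6a2 and Col6a1, whose products form beaded filaments between fibrils and cells, came next at 155 ± 66.2 and 120.5 ± 54.9 FPKM. Among basement membrane genes Col4a1 had 84.0 ± 24.2 FPKM and Col4a2 had 49.5 ± 13.9 FPKM. Col17a1, a collagen of the hemidesmosome that holds basal keratinocytes to the basement membrane, had 27.8 ± 16.2 FPKM. At the lower end of the genes tested was Col6a5, at 0.0985 ± 0.0397 FPKM.

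**Figure D1:**
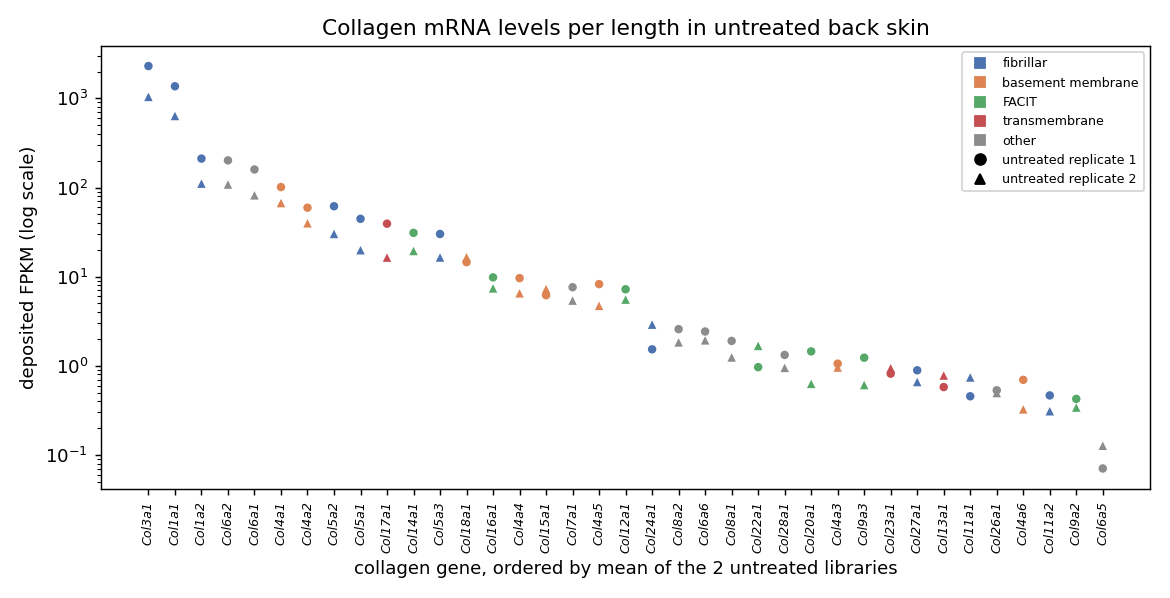
Deposited FPKM (log axis) of the 37 collagen genes tested in each untreated library, ordered by their mean and coloured by class. Col3a1 and Col1a1 lead, at means of 1672 and 1001 FPKM, and for Col3a1, Col1a1 and Col1a2 untreated replicate 1 lies above replicate 2.

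The share of a library taken by all 43 collagens varied widely within groups. It was 1.69% (95% Wilson interval 1.68% to 1.70%) and 0.877% (0.873% to 0.881%) in untreated skin. With gefitinib the share was 0.924% (0.920% to 0.929%) and 0.172% (0.171% to 0.174%), and with afatinib 0.824% (0.820% to 0.828%) and 0.641% (0.638% to 0.645%). These intervals cover counting error only, as the reads carry no molecular identifiers in the labels. The highest share was in untreated replicate 1 and the lowest in gefitinib replicate 2, and the gefitinib and untreated groups overlapped. An exact permutation test over libraries, two-sided like all tests here, gave p = 0.667 for gefitinib and p = 0.333 for afatinib against untreated, where 0.333 is the smallest value that 2 against 2 libraries allow. For both inhibitors together the exact test gave p = 0.2, with 0.0667 the smallest possible.

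Fibrillar genes supplied 86.9% and 83.3% of collagen counts in untreated skin, 78.1% and 57.1% with gefitinib, and 83.7% and 57.8% with afatinib. Basement membrane genes supplied 5.18% and 7.57%, then 10.1% and 15.7%, then 5.62% and 20.3%. The transmembrane share was 0.927% and 0.821% in untreated skin, 2.58% and 11.2% with gefitinib, and 1.24% and 6.27% with afatinib. All 4 inhibitor libraries therefore lay above both untreated libraries in transmembrane share, by 4.45 percentage points on average, but afatinib replicate 1 stayed close to untreated skin. The exact permutation p was 0.2 for the transmembrane share, 0.2 for the fibrillar share and 0.267 for the basement membrane share, each for both inhibitors against untreated. These are shares of collagen counts, so each also depends on the other classes. Of the whole library, transmembrane genes took 0.0157% and 0.00720% in untreated skin, 0.0239% and 0.0193% with gefitinib, and 0.0103% and 0.0402% with afatinib. On that scale afatinib replicate 1 lay between the untreated libraries. Basement membrane genes took 0.0876% and 0.0664%, then 0.0938% and 0.0271%, then 0.0463% and 0.130%, with overlapping groups.

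**Figure D2:**
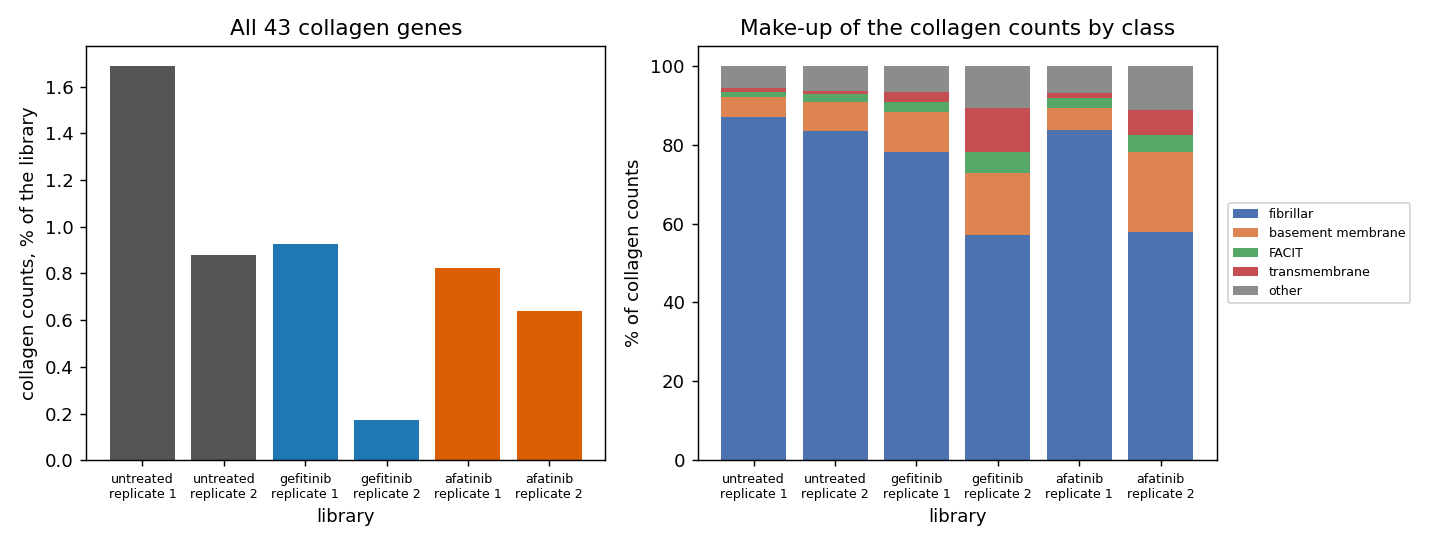
Left, collagen counts as a percent of all counts in each of the 6 libraries. Right, the same collagen counts split by structural class, where the fibrillar part is smallest in gefitinib replicate 2 (57.1%) and afatinib replicate 2 (57.8%).

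Single genes were tested with edgeR's quasi-likelihood test, with Benjamini-Hochberg adjustment over all 16398 genes and a threshold of 0.05. For gefitinib against untreated 8 of 37 collagens passed, beside 17.7% of all genes. Col11a2 and Col13a1 rose, 2 of 37 beside a background of 12.3%. Col5a3, Col4a3, Col4a4, Col4a5, Col22a1 and Col28a1 fell, 6 of 37 beside a background of 5.45%. At an unadjusted p under 0.05, 17 collagens were lower, beside 15.9% of all genes, and 2 were higher, beside 21.4%. The median log2 fold change of the 37 was -1.21 against 0.04 over all genes, and 29 values were negative. Both gefitinib libraries lay below both untreated libraries for 22 collagens (33.9% of all genes) and above them for 3 (38.8% of all genes).

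Afatinib against untreated called no collagen in edgeR's test, beside 3.98% of all genes (3.6% higher and 0.372% lower). At an unadjusted p under 0.05 there were 2 collagens higher (16% of all genes) and 5 lower (5.91%). DESeq2 called 2 collagens, beside 1992 of all genes, and limma-voom called 0, beside 34 of all genes. The median over the 37 was -0.60 against 0.09 for all genes, and with library size only it turned to 0.10 while the median of all genes was 0.71. Both afatinib libraries lay below both untreated ones for 16 collagens, beside 21.8% of all genes, and above them for 5, beside 31.5%. For the mean of both inhibitors 7 of 37 passed, beside 16% of all genes: the genes called for gefitinib other than Col28a1. Of these 2 were higher (background 11%) and 5 lower (4.93%), with a median of -0.97. At an unadjusted p under 0.05, 15 were lower (14.4% of all genes) and 2 higher (20.8%). All 4 inhibitor libraries lay below both untreated ones for 16 collagens (18.8% of all genes) and above them for 2 (27.2%).

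These calls rested on few libraries. Calls over all genes also fell when a library of either compared group was left out, so such losses were not particular to collagens. The collagen median for gefitinib stayed between -2.04 and -0.91 with one library left out. Leaving out untreated replicate 1 ended all 8 gefitinib calls, at adjusted p from 0.118 to 0.209, and leaving out untreated replicate 2 did so at 0.0889 to 0.221. Without gefitinib replicate 2 all 8 were lost as well, at 0.121 to 0.230, and without gefitinib replicate 1 only Col5a3 still passed, at 0.0430. With scaling by library size only, Col11a2 and Col13a1 still passed at 0.0309 and 0.0302, while the 6 genes that fell gave 0.0677 to 0.395. Under that scaling the median of all genes was 0.73 and 94.1% of all calls were higher, beside 69.3% under TMM. Relative to the median of all genes, the collagen median was -1.24, beside -1.26 under TMM. In limma-voom Col11a2 gave 0.0515 and Col13a1 gave 0.0721, and the other 6 passed. Without afatinib replicate 1 the median log2 fold change of the collagens was -0.36 for afatinib and -1.21 for gefitinib. Without afatinib replicate 2 it was -0.63 for afatinib and -1.28 for gefitinib. For both inhibitors no collagen was called without either untreated library, and only Col4a4 was called without gefitinib replicate 2 (edgeR, adjusted p = 0.0469).

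**Figure D3:**
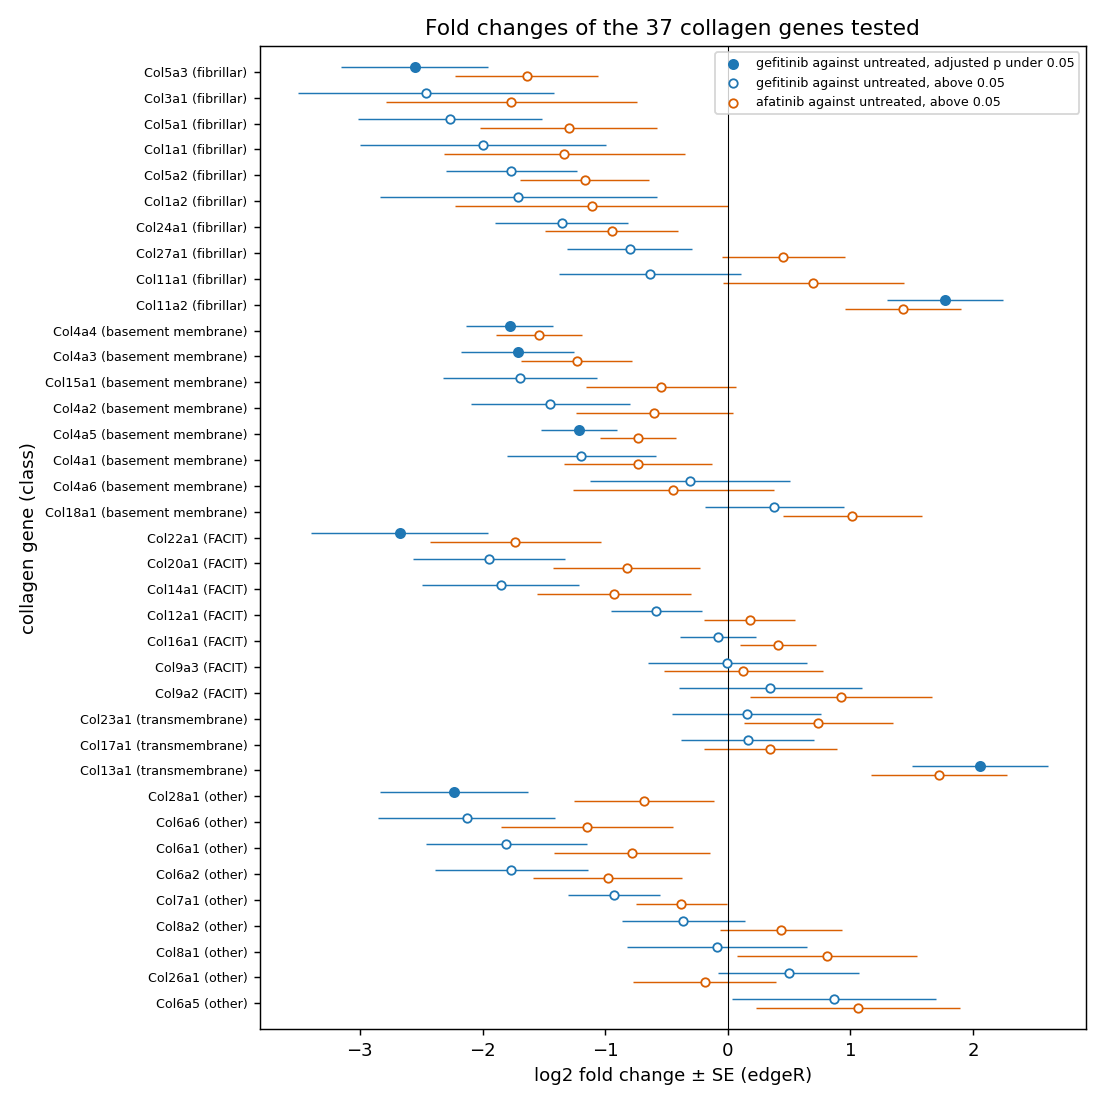
Log2 fold change with its standard error for the 37 collagen genes tested, by class, for gefitinib and for afatinib against the same 2 untreated libraries. Filled points passed the adjusted threshold, which 8 genes did for gefitinib and none for afatinib; fibrillar and basement membrane genes lie mostly left of 0 and the 3 transmembrane genes right of it.

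Among the fibrillar genes, those of types I, III and V were lower in every gefitinib library than in either untreated library. With gefitinib 1 of the 10 tested rose and 1 fell, beside 12.3% and 5.45% of all genes. The class had a median log2 fold change of -1.74 with gefitinib and -1.14 with afatinib. Col3a1 had 10887 and 4880.5 CPM in untreated skin, 2467 and 398 CPM with gefitinib, and 3549 and 1087 CPM with afatinib. Col1a1 had 7898 and 3642 CPM, then 2516 and 377 CPM, then 3346 and 1239 CPM in the same order. For both genes all 4 inhibitor libraries lay below both untreated ones, and gefitinib replicate 2 was the lowest. The log2 fold change of Col3a1 was -2.46 ± 1.05 (SE; adjusted p = 0.134) with gefitinib and -1.77 ± 1.02 (adjusted p = 0.355) with afatinib. Col1a1 gave -1.996 ± 0.999 (adjusted p = 0.187) and -1.33 ± 0.98 (adjusted p = 0.462). Neither passed the test.

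The balance between these genes shifted more evenly than their levels. Col3a1 had 1.38 and 1.34 counts for each count of Col1a1 in untreated skin. With gefitinib this ratio was 0.981 and 1.06, and with afatinib 1.06 and 0.877. Every inhibitor library was below both untreated ones, with means of 0.994 ± 0.0862 (SD, n = 4) and 1.36 ± 0.0273 (SD, n = 2). The exact two-sided permutation test gave p = 0.0667, the smallest that this design allows. Ratios of other pairs were also tested for both inhibitors and gave larger p in the same test. These were 0.867 for Col1a1 to Col1a2, 0.733 for Col4a1 to Col4a2, 0.933 for Col6a2 to Col6a1 and 0.467 for Col4a6 to Col4a5. A ratio within a library does not depend on scaling between libraries, and it shows unequal change rather than which gene moved.

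Col1a2, the other chain of type I collagen, had 936 and 487 CPM in untreated skin, 400.6 and 35.4 CPM with gefitinib, and 555 and 104 CPM with afatinib. The afatinib and untreated groups overlapped, and the gefitinib difference of -1.71 ± 1.13 did not pass (adjusted p = 0.302). Col1a1 had 7.95 ± 0.682 counts (SD, n = 2) for each Col1a2 count in untreated skin, and 8.72 ± 3.02 (SD, n = 4) in the inhibitor libraries. The table also held NEWGENE_621351, a second locus on chromosome 4 with the same domain annotation and a span of 34915 bases beside 34927 for Col1a2. It had 7 counts in all beside 44178 for Col1a2, and whether reads were divided between such copies was not tested, so the level of Col1a2 is uncertain.

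Type V collagen sits in the core of dermal fibrils and limits their width, and Col5a3 encodes one of its chains. Its counts gave 180.5 and 97.7 CPM in untreated skin, 34.8 and 12.6 CPM with gefitinib, and 28.4 and 60.7 CPM with afatinib. No inhibitor library reached the lower untreated one. Col5a3 fell with gefitinib by a log2 fold change of -2.55 ± 0.60 (adjusted p = 0.0311) and in both inhibitors together by -2.10 ± 0.47 (adjusted p = 0.0288). With afatinib alone the value was -1.64 ± 0.58 (adjusted p = 0.159). Col5a2, which encodes another chain, had 274 and 133 CPM, then 86.4 and 33.3 CPM, then 105 and 76.8 CPM. It was likewise below both untreated libraries in all 4, without passing (-1.76 ± 0.53, adjusted p = 0.0597 with gefitinib).

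Against this direction ran Col11a2, a chain of type XI collagen best known from cartilage fibrils. It had 2.90 and 1.92 CPM in untreated skin, 7.57 and 8.88 CPM with gefitinib, and 4.29 and 8.64 CPM with afatinib, all 4 above both untreated libraries. Col11a2 rose with gefitinib by 1.77 ± 0.48 on the log2 scale (adjusted p = 0.0440) and in both inhibitors by 1.60 ± 0.43 (adjusted p = 0.0475). The summed level of 8 chondrocyte markers was 5.12 to 6.02 CPM in untreated skin, 5.78 to 7.72 CPM with gefitinib and 7.34 to 13.8 CPM with afatinib. Of the 6 tested, 5 had positive values with gefitinib, among them Comp at 1.24 (adjusted p = 0.299) and Sox9 at 0.71 (adjusted p = 0.282), and none of the 5 passed. Cnmd, a cartilage glycoprotein, fell by -3.42 (adjusted p = 0.0420). The cartilage-defining genes Acan, Matn1 and Matn3 were at 0 in some library, and Col2a1, the main cartilage collagen, had 7 and 8 counts in untreated skin and 1 to 3 in each inhibitor library. The part of such cells in the Col11a2 result was not tested.

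The stretches before the starts of Col5a3 and Col11a2 are shown because these were the fibrillar genes that passed, in opposite directions. Each is the 250 bases before the RefSeq start in build GRCr8, 5′ to 3′ on the gene's strand, with GC boxes (GGGCGG or its reverse complement CCGCCC) in capitals. Both hold 3 GC boxes, of which 2 overlap in Col11a2. In the count table, for which no source used here names a build, Col5a3 spans bases 21786324 to 21831668 of chromosome 8 and Col11a2 bases 3830164 to 3859018 of chromosome 20.
Col5a3 (chr8:27625949-27626198, minus strand): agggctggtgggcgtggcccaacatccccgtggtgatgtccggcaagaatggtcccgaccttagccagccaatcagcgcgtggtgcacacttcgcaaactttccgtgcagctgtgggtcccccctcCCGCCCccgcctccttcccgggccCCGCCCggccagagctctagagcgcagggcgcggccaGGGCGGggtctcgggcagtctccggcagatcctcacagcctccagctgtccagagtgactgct
Col11a2 (chr20:4817649-4817898, minus strand): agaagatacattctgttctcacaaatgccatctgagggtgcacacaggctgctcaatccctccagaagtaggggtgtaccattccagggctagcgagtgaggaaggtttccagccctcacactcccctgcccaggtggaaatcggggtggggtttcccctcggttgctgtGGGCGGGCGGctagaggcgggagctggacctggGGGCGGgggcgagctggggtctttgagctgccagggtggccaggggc

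**Figure D4:**
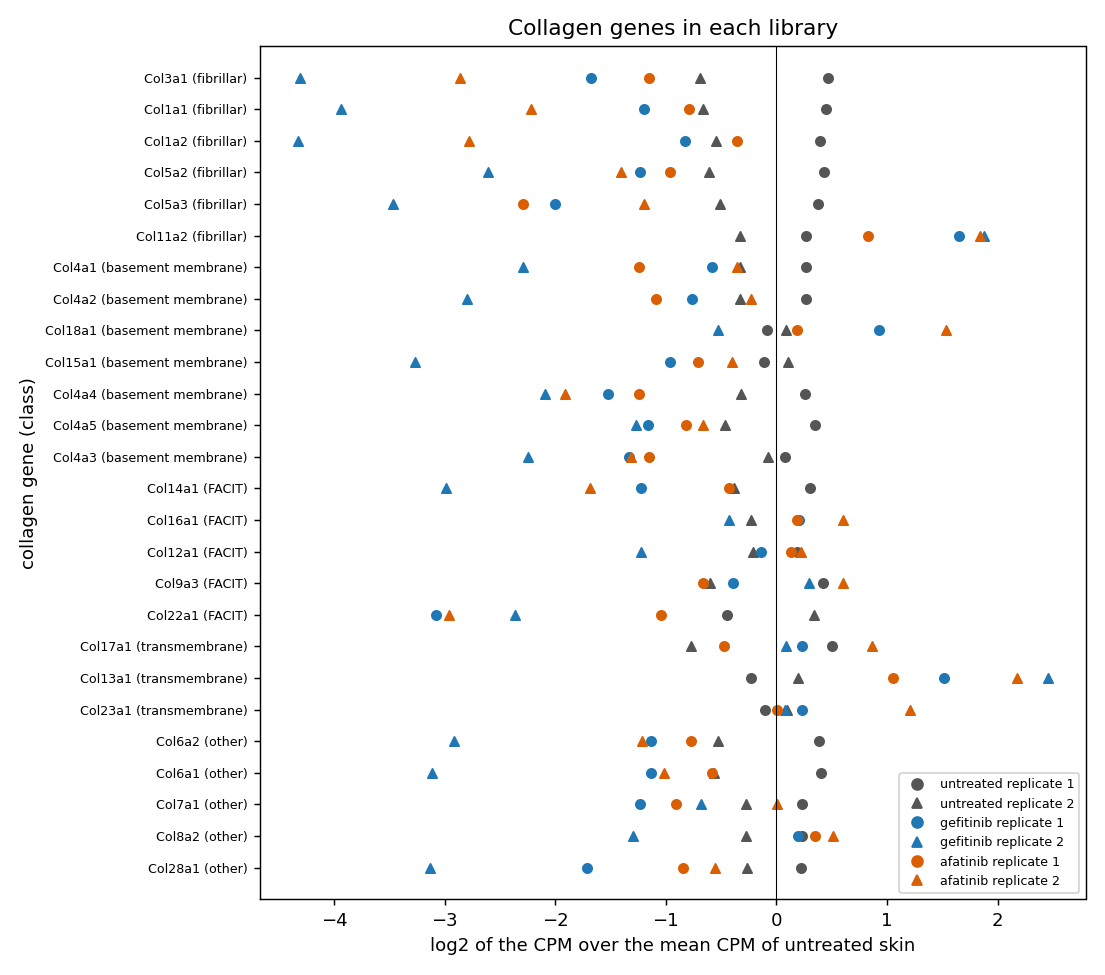
Each named collagen gene in each library, as log2 of its CPM over the mean CPM of the 2 untreated libraries (0 line). Gefitinib replicate 2 is the lowest library for Col3a1, Col1a1 and most other fibrillar genes, whereas Col11a2 and Col13a1 lie right of the untreated libraries in all 4 inhibitor libraries.

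The basement membrane class had 3 of 8 genes that fell with gefitinib, all of type IV, and the same 3 fell in both inhibitors together. Over all genes 5.45% fell with gefitinib and 4.93% in both inhibitors. Class medians were -1.33 with gefitinib and -0.67 with afatinib, the latter turning to 0.04 with library size only. Type IV chains assemble in fixed combinations: Col4a1 with Col4a2 in nearly every basement membrane, Col4a3 with Col4a4 and Col4a5 in the kidney glomerulus and a few other sites, and Col4a5 with Col4a6 under the epidermis. The common pair did not pass. Col4a1 had 659 and 434 CPM in untreated skin, 366 and 112 CPM with gefitinib, and 231 and 427 CPM with afatinib, with adjusted p = 0.192 for gefitinib. Col4a2 had 291 and 193 CPM, then 143 and 34.7 CPM, then 114 and 206 CPM, with adjusted p = 0.148. Both genes were lowest in gefitinib replicate 2, and afatinib replicate 2 came close to untreated replicate 2 for each.

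Col4a4 had the smallest adjusted p of any collagen. It had 104 and 70.0 CPM in untreated skin, 30.3 and 20.5 CPM with gefitinib, and 36.8 and 23.1 CPM with afatinib. The 4 inhibitor libraries were all below the untreated pair, with a clear gap. Col4a4 fell with gefitinib by -1.78 ± 0.36 on the log2 scale (adjusted p = 0.0206) and in both inhibitors by -1.66 ± 0.29 (adjusted p = 0.0163). For both inhibitors the call was lost without untreated replicate 1 (adjusted p = 0.124) or untreated replicate 2 (0.0975) and kept under every other setting tried. The afatinib value was -1.54 ± 0.35 (adjusted p = 0.0579).

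Its partner Col4a3 was far less abundant, at 6.98 and 6.28 CPM, then 2.63 and 1.40 CPM, then 2.99 and 2.66 CPM. Again no inhibitor library reached the untreated ones. Col4a3 fell with gefitinib by -1.71 ± 0.46 (adjusted p = 0.0434) and in both inhibitors by -1.47 ± 0.37 (adjusted p = 0.0395). Col4a5 had 52.9 and 30.0 CPM, then 18.5 and 17.2 CPM, then 23.6 and 26.3 CPM. Col4a5 fell with gefitinib by -1.21 ± 0.31 (adjusted p = 0.0392) and in both inhibitors by -0.97 ± 0.26 (adjusted p = 0.0450). Counts of Col4a3 for each count of Col4a4 were 0.0784 ± 0.0161 in untreated skin (SD, n = 2) and 0.0878 ± 0.0197 in the inhibitor libraries (SD, n = 4), a difference within the spread (exact permutation p = 0.733).

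Type IV genes lie head to head in pairs that share the stretch between their starts, and the pairs are shown for that reason. RefSeq places the starts of Col4a2 and Col4a1 on chromosome 16 with 76 bases between them, and those of Col4a3 and Col4a4 on chromosome 9 close enough for the windows before them to overlap. In the deposited table the Col4a3 and Col4a4 loci are 373 bases apart, at bases 88357556 to 88485830 and 88232455 to 88357182. There the Col4a1 and Col4a2 loci are 83600 bases apart, so their close starts rest on RefSeq alone. Col4a5 and Col4a6, not printed here, are 295822 bases apart there, with 1414 bases between their RefSeq starts. For Col4a2 to Col4a1 the plus strand is printed with its single GC box in capitals. For Col4a3 and Col4a4 the 250 bases before each start are printed on the gene's own strand, and capitals mark the 88 bases that both windows share as reverse complements.
Col4a2 to Col4a1 (chr16:84885521-84885596, plus strand): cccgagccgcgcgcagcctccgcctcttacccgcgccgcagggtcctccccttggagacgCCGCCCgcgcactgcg
Col4a3 (chr9:91323740-91323989, plus strand): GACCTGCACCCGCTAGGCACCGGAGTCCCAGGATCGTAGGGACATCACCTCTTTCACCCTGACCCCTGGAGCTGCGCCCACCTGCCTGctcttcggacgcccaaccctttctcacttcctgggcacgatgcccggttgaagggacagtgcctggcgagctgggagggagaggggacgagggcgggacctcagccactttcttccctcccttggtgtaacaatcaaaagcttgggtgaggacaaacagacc
Col4a4 (chr9:91323578-91323827, minus strand): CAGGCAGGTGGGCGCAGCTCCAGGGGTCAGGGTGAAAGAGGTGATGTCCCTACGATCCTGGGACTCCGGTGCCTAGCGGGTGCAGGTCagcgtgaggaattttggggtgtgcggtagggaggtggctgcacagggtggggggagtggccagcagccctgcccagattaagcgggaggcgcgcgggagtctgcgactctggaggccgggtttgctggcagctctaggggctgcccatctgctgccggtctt

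**Figure D5:**
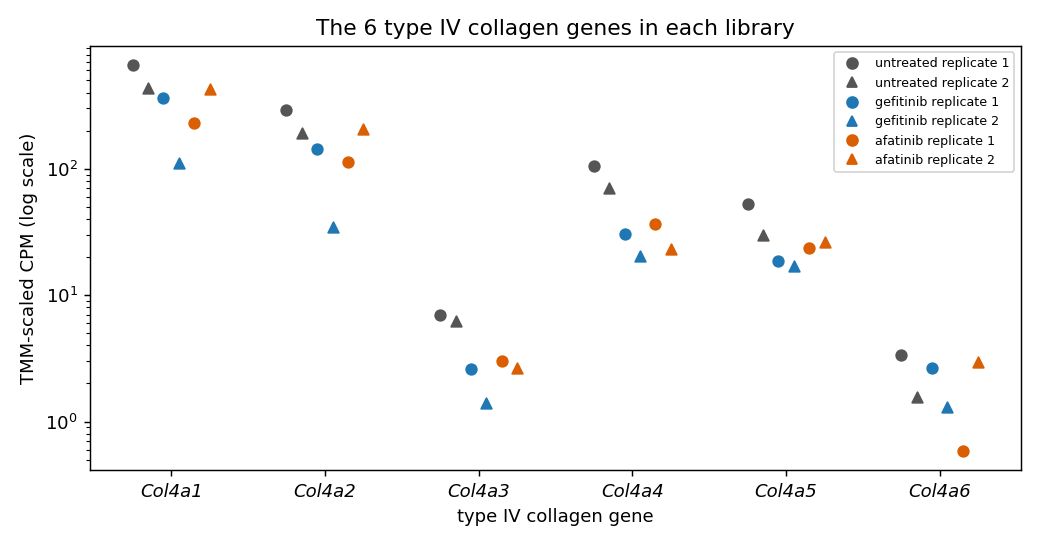
CPM (log axis) of the 6 type IV collagen genes in each library. For Col4a3, Col4a4 and Col4a5 all 4 inhibitor libraries lie below both untreated libraries, while for Col4a2 and Col4a6 the groups overlap.

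The class also held Col18a1 and Col15a1. Col18a1, the source of endostatin in vessel and epithelial basement membranes, had 72.2 and 81.3 CPM in untreated skin, 146 and 53.3 CPM with gefitinib, and 87.6 and 223 CPM with afatinib. Its replicates disagreed, as gefitinib replicate 1 lay above and replicate 2 below untreated skin, and it did not pass (adjusted p = 0.644 and 0.341). Col15a1, of the outer basement membrane zone of vessels and muscle, had 31.9 and 37.1 CPM, then 17.7 and 3.59 CPM, then 21.1 and 26.2 CPM. All 4 inhibitor libraries were lower, without passing (adjusted p = 0.0993 with gefitinib). Col4a6 ran from 0.585 to 3.39 CPM over all libraries with overlapping groups.

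FACIT collagens were divided, with 1 of 7 tested genes falling with gefitinib, beside 5.45% of all genes. The class median was -0.59 with gefitinib and 0.13 with afatinib. Under scaling by library size only the gefitinib median was 0.14. The gene that fell was Col22a1, known from tissue junctions such as that between muscle and tendon. It had 4.63 and 7.97 CPM in untreated skin, 0.745 and 1.23 CPM with gefitinib, and 3.05 and 0.810 CPM with afatinib. No inhibitor library reached the untreated ones, and afatinib replicate 1 came nearest. Col22a1 fell with gefitinib by -2.68 ± 0.72 (adjusted p = 0.0446) and in both inhibitors by -2.20 ± 0.57 (adjusted p = 0.0412).

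The summed level of the 49 skeletal muscle genes moved alongside, at 375085 and 329405 CPM in untreated skin, 55566 and 106403 CPM with gefitinib, and 235601 and 55519 CPM with afatinib. Of these genes 14 fell and 1 rose with gefitinib, and 13 fell and 1 rose in both inhibitors. Over all genes 5.45% fell with gefitinib and 4.93% in both inhibitors. None of the 9 cell type markers among the 49 was called in either comparison, where 3 were lower at an unadjusted p under 0.05. Both series put afatinib replicate 1 nearest to untreated skin, and the part of muscle in the Col22a1 result was not tested. Leaving the muscle genes out of scaling and testing gave Col22a1 an adjusted p of 0.0445.

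Col14a1, which coats dermal fibrils, had 165 and 103 CPM in untreated skin, 57.4 and 16.9 CPM with gefitinib, and 99.7 and 41.6 CPM with afatinib. It lay below untreated skin in all 4 libraries without passing (-1.85 ± 0.64, adjusted p = 0.0837 with gefitinib). Col12a1, a related fibril coat gene, had 75.8 and 57.7 CPM, then 60.5 and 28.5 CPM, then 73.0 and 78.0 CPM. Col16a1, found near the junction of dermis and epidermis, had 51.0 and 38.1 CPM, then 51.3 and 33.0 CPM, then 50.8 and 67.5 CPM. The groups overlapped for both, with adjusted p = 0.283 and 0.870 for gefitinib. Col9a3, a cartilage gene, stayed between 1.17 and 2.81 CPM in all 6 libraries, with no ordering by group.

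In the transmembrane class 1 of 3 tested genes rose with gefitinib, beside 12.3% of all genes. All 3 had positive values under gefitinib and afatinib. Scaling by library size only cannot test these signs, as it moved the median of all genes up to 0.73 and 0.71. The class medians were 0.16 and 0.74, beside 0.04 and 0.09 over all genes. With gefitinib Col17a1 and Col23a1 gave only 0.16 and 0.15. The gene that rose was Col13a1, an adhesion collagen of many cell types that is also known from the neuromuscular junction. Its level was 1.52 and 2.04 CPM in untreated skin, 5.10 and 9.76 CPM with gefitinib, and 3.70 and 8.02 CPM with afatinib. Every inhibitor library was above both untreated ones. Col13a1 rose with gefitinib by 2.05 ± 0.56 on the log2 scale (adjusted p = 0.0449) and in both inhibitors by 1.89 ± 0.51 (adjusted p = 0.0473). For both inhibitors the call was lost with DESeq2 size factors and in limma-voom. The gefitinib call was kept with DESeq2 size factors. Afatinib alone gave 1.72 ± 0.55 (adjusted p = 0.130).

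The 250 bases before the RefSeq start of Col13a1 are given as those of the transmembrane gene that passed. They hold no GC box and 1 TATAAA, which is not set in capitals. In the count table the gene covers bases 31456852 to 31598118 of chromosome 20.
Col13a1 (chr20:30466801-30467050, minus strand): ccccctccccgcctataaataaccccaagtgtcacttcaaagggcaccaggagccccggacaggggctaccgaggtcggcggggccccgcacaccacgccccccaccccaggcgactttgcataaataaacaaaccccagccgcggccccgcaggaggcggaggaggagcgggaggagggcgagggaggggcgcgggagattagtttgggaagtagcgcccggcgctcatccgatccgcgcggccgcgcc

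Col17a1 was the abundant member of this class. It had 216 and 89.4 CPM in untreated skin, 179 and 163 CPM with gefitinib, and 109.8 and 278 CPM with afatinib. The groups overlapped, since the untreated libraries themselves spanned most of the range, and it did not pass (0.16 ± 0.54, adjusted p = 0.847 with gefitinib). The summed level of 8 basal keratinocyte markers was 1237 to 1714 CPM in untreated skin, 2430.3 to 2458 CPM with gefitinib and 2680.1 to 4182 CPM with afatinib. Of these 8, 3 rose and 1 fell with gefitinib, beside 12.3% and 5.45% of all genes. Krt5, a keratin of basal cells, rose by 1.83 (adjusted p = 0.0386) and Tp63, a transcription factor of the same layer, by 1.93 (adjusted p = 0.0162), while Dst, a linker of keratin to the hemidesmosome that is also made in nerve and muscle, fell by -1.86 (adjusted p = 0.0155). Whether keratinocyte content bears on the Col17a1 and Col13a1 levels was not tested. Col23a1, a further transmembrane collagen, ran from 0.968 to 1.22 CPM except for 2.39 CPM in afatinib replicate 2.

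Among the remaining collagens 1 of 9 tested fell with gefitinib, beside 5.45% of all genes. The median was -0.93 with gefitinib and -0.38 with afatinib, the latter 0.34 with library size only. Col6a2 had 738 and 393 CPM in untreated skin, 258 and 75.0 CPM with gefitinib, and 330.5 and 244 CPM with afatinib. Col6a1 had 486 and 248 CPM, then 168 and 42.4 CPM, then 246 and 182 CPM. Both lay below untreated skin in all 4 inhibitor libraries without passing (adjusted p = 0.0863 and 0.0928 with gefitinib), and Col6a1 of afatinib replicate 1 was within 3 CPM of untreated replicate 2. Col7a1, whose protein forms the anchoring fibrils beneath the epidermal basement membrane, had 69.2 and 48.6 CPM, then 25.1 and 36.7 CPM, then 31.4 and 59.0 CPM. The gefitinib libraries were below untreated skin and the afatinib libraries overlapped it (adjusted p = 0.118 and 0.580). Col8a2, a network collagen of vessel and corneal matrix, ran from 3.72 to 13.0 CPM with overlap between the gefitinib and untreated groups.

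Col28a1, a relative of type VI known from peripheral nerve, had 4.49 and 3.20 CPM in untreated skin, 1.18 and 0.438 CPM with gefitinib, and 2.14 and 2.62 CPM with afatinib. It fell with gefitinib by -2.24 ± 0.60 (adjusted p = 0.0445), and the value for both inhibitors was -1.46 ± 0.48 (adjusted p = 0.0780). Markers of Schwann cells, the glia of peripheral nerve, moved alongside. Of 7 such genes 6 fell with gefitinib, 3 with afatinib and 6 in both inhibitors, beside 5.45%, 0.372% and 4.93% of all genes. With library size only these counts were 4, 2 and 4, where 94.1%, 97.6% and 93.3% of calls over all genes were higher. The summed level of the 7 genes was 1352 and 916 CPM in untreated skin, 218 and 126 CPM with gefitinib, and 279.9 and 169 CPM with afatinib. The part of these cells in the Col28a1 and type IV results was not tested.

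No collagen passed for afatinib against gefitinib in edgeR's test, where no gene of all 16398 did (0% of genes). At an unadjusted p under 0.05 there were 2 collagens, both higher with afatinib, beside 3.82% of all genes higher and 1.95% lower. DESeq2 and limma-voom called no collagen either, beside 32 and 0 of all genes. The median over the 37 collagens was 0.64, with 33 positive values, against 0.04 for all genes. It rested on gefitinib replicate 2, as it was 0.19 without that library and 1.41 without gefitinib replicate 1. Both afatinib libraries lay above both gefitinib libraries for 9 collagens (17.1% of all genes) and below them for 1 (19.9%).

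The genes that make, finish and break down collagen were followed as lists. As background for all list counts below, 12.3% of all genes rose and 5.45% fell with gefitinib. With afatinib 3.6% rose and 0.372% fell, and in both inhibitors 11% rose and 4.93% fell. These are shares under TMM. With library size only, the gefitinib median of all genes was 0.73 and 94.1% of all calls were higher. Fewer lower calls in a list under that scaling are thus not particular to the list. Of 18 genes for hydroxylation and folding, 2 fell with gefitinib and in both inhibitors, and the median was -0.91 with gefitinib. P4ha1, a catalytic subunit of prolyl hydroxylase, had 47.0 and 44.9 CPM in untreated skin, 26.7 and 21.6 CPM with gefitinib, and 31.7 and 25.9 CPM with afatinib. It fell by -0.80 ± 0.20 in both inhibitors (adjusted p = 0.0384). Its homologue P4ha2 had 56.9 and 40.1 CPM, then 19.8 and 14.4 CPM, then 33.99 and 17.1 CPM, and fell by -1.21 ± 0.32 (adjusted p = 0.0429). All 4 inhibitor libraries were below untreated skin for both subunits, and with library size only neither was called lower.

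None of 15 genes for procollagen trimming and cross-linking was called with gefitinib in edgeR's test, where 5 were lower at an unadjusted p under 0.05, and the list median was -1.16. Lox, the main cross-linking oxidase, had 144 and 69.9 CPM in untreated skin, 53.3 and 17.6 CPM with gefitinib, and 57.8 and 30.9 CPM with afatinib (adjusted p = 0.0840 for both inhibitors). Sparc, a collagen-binding glycoprotein, had 4308 and 2445 CPM, then 1521 and 346 CPM, then 1690.1 and 1028 CPM (adjusted p = 0.121). Neither group of inhibitor libraries overlapped untreated skin for these genes.

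Among 14 degradation genes 4 rose with each drug, all of them matrix metalloproteinases, and none fell. The median was -0.43 with gefitinib (0.28 with library size only), 8 of 14 values were negative, and 4 genes were lower at an unadjusted p under 0.05. With DESeq2 size factors 1 gene was called lower for gefitinib, and with library size only 4 were again called higher and none lower for each drug. Mmp13, a collagenase that cuts fibrillar collagen, had 0.138 and 0.175 CPM in untreated skin, 7.17 and 13.3 CPM with gefitinib, and 42.95 and 67.1 CPM with afatinib. Mmp3, a stromelysin, had 2.07 and 1.57 CPM, then 8.59 and 26.1 CPM, then 24.6 and 75.6 CPM. Mmp9, a gelatinase, and Mmp8, the neutrophil collagenase, each held at most 0.138 CPM in an untreated library and 2.01 to 51.4 CPM in the inhibitor libraries. All 4 passed for gefitinib (adjusted p from 0.00811 to 0.0279) and for afatinib (0.00354 to 0.0369). For none of these 4 genes did inhibitor and untreated libraries overlap.

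Collagen receptors and partners went both ways. Of 9 receptors 2 rose and 1 fell with gefitinib: Cd44, a hyaluronan and collagen receptor, rose by 1.72 (adjusted p = 0.0201), Ddr1, a collagen-binding kinase of epithelia, by 1.06 (adjusted p = 0.0441), and Itga11, a collagen integrin of fibroblasts, fell by -1.97 (adjusted p = 0.0325). Of 11 laminin and other basement membrane partners 1 rose and 4 fell with gefitinib. Lamb3, a chain of the epidermal laminin, rose by 1.54 (adjusted p = 0.0465), while Lama2, of muscle and nerve basement membranes, fell by -2.40 (adjusted p = 0.0290) and Lamc1, a chain of most laminins, by -1.75 (adjusted p = 0.0328). With library size only, genes called lower went from 4 to 1 among these partners and from 1 to 0 among the receptors, which ended the Itga11 call. In the TGF-beta pathway, a driver of collagen transcription in fibroblasts, 4 of 14 genes fell and none rose with gefitinib. They included the ligand Tgfb2 (-1.50, adjusted p = 0.0191) and the receptor Tgfbr2 (-1.82, adjusted p = 0.0299), and with library size only none of the 14 was called.

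Fibroblast markers had a median log2 fold change of -0.95 with gefitinib and -0.10 with afatinib, the latter 0.39 with library size only. Of the 11 markers 1 rose and none fell with gefitinib, where 3 were lower at an unadjusted p under 0.05, and their summed level was 2242 to 2935 CPM in untreated skin, 815 to 1641 CPM with gefitinib and 1574 to 2457 CPM with afatinib. The marker that rose was Fbln1, by 1.56 (adjusted p = 0.0155), and it was lowest in untreated replicate 1. Pdgfra, a defining fibroblast receptor, had 80.1 and 53.8 CPM in untreated skin, 54.1 and 25.6 CPM with gefitinib, and 51.9 and 38.1 CPM with afatinib. It did not pass (-0.75, adjusted p = 0.213 with gefitinib). Gefitinib replicate 2 was the lowest library for Pdgfra, as for most fibrillar collagens. Of 8 endothelial markers 3 fell with gefitinib, among them Cdh5, the vessel cadherin (-2.14, adjusted p = 0.0286), and their sum was 526 to 605 CPM in untreated skin, 105 to 299 CPM with gefitinib and 356 to 402 CPM with afatinib. With library size only none of the 8 was called and their median with gefitinib went from -1.38 to -0.65. The median of all genes went from 0.04 to 0.73. No marker of macrophages (6) or adipocytes (5) was called in either drug comparison by edgeR, where at an unadjusted p under 0.05 1 macrophage marker was lower with gefitinib and 3 adipocyte markers were higher with afatinib. The part of these cells in the collagen results was not tested.

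The starts of the collagen genes were described from RefSeq, build GRCr8, where 34 of the 43 members matched by symbol. Of these 34, 19 (55.9%) held a GC box (GGGCGG, either strand, overlaps counted) in the 250 bases before a start, beside 33.5% of 27457 genes with such a window. The fibrillar and basement membrane classes each had 6 of 8 with the box, and the transmembrane class 1 of 3. A CCAAT box (CCAAT, either strand) was present in 11 of the 34 (32.4%), beside 36.1% of all genes, and TATAAA (either strand) in 4 (11.8%), beside 14.1%. Of the 8 genes that passed with gefitinib, Col5a3, Col11a2, Col4a3 and Col4a5 held the GC box, and Col4a4, Col13a1 and Col28a1 did not. No window was matched for Col22a1. These are matches of letters and no evidence of binding.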

How the data were processed

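RNA was measured in 6 rat skin libraries, 2 per group, grouped by their labels. The deposited count table holds whole-number read counts per gene as the authors made them. Per the submitters' processing notes, which give no roles, the tools were featureCounts 1.5.0-p3, the aligner HISAT2 2.0.5 and the package DESeq2 1.16.1. The genome build, annotation and use of strand were not stated in any source read here. The deposited FPKM table was made by the authors from those counts, gene lengths and a divisor per library, as its values show, and was used only to compare levels between genes.

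Counts were fitted in R 4.3.3 with edgeR 4.0.16 (TMM, default low-count filter, quasi-likelihood test) over all 6 libraries, which left 3 residual degrees of freedom, with Benjamini-Hochberg adjustment and a threshold of 0.05. The 1342 loci with no gene name took 1.68% to 2.54% of counts. Alternatives used limma 3.58.1, DESeq2 1.42.0, other scaling, no filter, a replicate block and each library left out. Totals of 17206456 to 22086673 counts set the precision. Values in every library are given for members that passed in any comparison and for up to 4 members per class with the highest mean FPKM, and from other lists up to 4 genes with the smallest p for both inhibitors. Members and lists were chosen with earlier results of these data known.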

Additional observations from a re-analysis of the deposited data

How the results depend on the processing

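With 2 libraries per group, counts of calls moved with most settings, and the cause was not tested. For gefitinib the number of genes called was 4550 with no filter on low counts, 4682 with DESeq2, 5286 with only the groups compared in the fit, and 0 to 5320 with one library left out. Collagens called were 2 with library size only, 18 with no filter, 18 with DESeq2, 13 with only the groups compared and 0 to 14 with one library left out. Their median log2 fold change was -0.51 with library size only and -2.04 to -0.91 with one library left out. With library size only 3262 of all genes were called for gefitinib, 94.1% of them higher. For afatinib, genes called were 1281 with library size only, 2083 with no filter, 1992 with DESeq2, 34 with limma-voom, 51 with only the groups compared and 0 to 3653 with one library left out. Collagens called were 3 with no filter, 2 with DESeq2 and 0 to 4 with one library left out, and the median was 0.0978 with library size only and -0.87 to -0.22 with one library left out. For both inhibitors, genes called were 4200 with no filter, 4251 with DESeq2 and 3 to 5809 with one library left out, and collagens called were 3 with library size only, 17 with no filter, 17 with DESeq2, 4 with limma-voom and 0 to 13 with one library left out. The median was -0.29 with library size only and -1.17 to -0.64 with one library left out. Of all genes, 3351 were called for both inhibitors with library size only and 1963 with limma-voom. For afatinib against gefitinib, genes called were 1 with library size only, 28 with no filter, 32 with DESeq2 and 0 to 3 with one library left out, the collagen median was 0.19 to 1.41, and the difference in collagen share was -0.192 to 0.560 percentage points. Over all genes, same-numbered libraries did not deviate together (r = 0.0331, 0.0374 and -0.174), though over the collagens alone r was 0.326, 0.170 and 0.330, and the labels name nothing that the numbers share, so they were not taken as pairs. With the replicate block, genes called were 2298 for gefitinib, 369 for afatinib and 2031 for both, and collagens called were 9, 1 and 7, which were not the same genes. Under the block Col5a3, Col4a4 and Col13a1 kept their calls for gefitinib and for both inhibitors. The calls of Col11a2 (adjusted p = 0.0647), Col4a5 (0.0536), Col4a3 (0.0538), Col22a1 (0.0652) and Col28a1 (0.0559) were lost for gefitinib, as were those of Col11a2 (0.0735), Col4a5 (0.0647), Col4a3 (0.0514) and Col22a1 (0.0644) for both. Leaving out the skeletal muscle genes changed no collagen call. Directions turned for genes that had not passed. With library size only, log2 fold changes were 0.115 (Col4a2), 0.0978 (Col15a1) and 0.335 (Col7a1) for afatinib, 0.636 (Col16a1), 0.144 (Col12a1), 0.669 (Col9a3) and 0.378 (Col8a2) for gefitinib, and 0.477 (Col12a1) and 0.0395 (Col7a1) for both. Col9a3 for gefitinib was 0.0175 with no filter, 0.0450 with limma-voom and 0.000209 with only the groups compared, and for both -0.00433 with DESeq2 size factors, -0.00551 with DESeq2 and -0.0361 with the replicate block. Col8a2 for both was -0.0308, -0.0312 and, with limma-voom, -0.00919. With one library left out, Col18a1 ran from -0.58 to 0.85, Col16a1 from -0.48 to 0.14, Col9a3 from -0.46 to 0.59, Col17a1 from -0.34 to 0.93 and Col8a2 from -1.35 to 0.12 for gefitinib. For afatinib Col12a1 ran from -0.00564 to 0.38, Col9a3 from -0.71 to 0.71, Col17a1 from -0.53 to 1.11 and Col23a1 from -0.0558 to 1.19. For both, Col16a1 ran from -0.0842 to 0.39, Col12a1 from -0.60 to 0.00238, Col9a3 from -0.39 to 0.65, Col17a1 from -0.25 to 1.02 and Col8a2 from -0.50 to 0.30.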

Other observations

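The domain annotation gave the collagen repeat to 38 further loci that the symbol rule did not take, and 24 of these were tested. These genes were chosen after their values were seen. C1qtnf9, a secreted protein with a collagen-like stalk, had 61.7 and 49.9 CPM in untreated skin, 4.90 and 8.45 CPM with gefitinib, and 23.5 and 8.79 CPM with afatinib. It fell in both inhibitors by -2.43 on the log2 scale (adjusted p = 0.0148, edgeR). Fcnb, a ficolin of innate immunity with a collagen-like stretch, had 0.207 and 0.0582 CPM, then 1.29 and 0.569 CPM, then 2.14 and 1.97 CPM, and rose by 3.37 (adjusted p = 0.0334). AABR07068316.1, a locus on chromosome 9 with 22631 counts in all, gave -1.64 (adjusted p = 0.0631).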
